A study of Caenorhabditis elegans with 4 samples.

Results

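Chromosome V, the longest autosome of the nematode Caenorhabditis elegans by the span of its peaks, carried 719 of the 4661 H3K4me3 regions found on 5 autosomes and X in whole worms. The regions were chosen by chromosome alone: all peaks placed on V in the list of either replicate were taken, and peaks of the 2 lists that overlapped by 1 bp or more were joined. A region with a peak of each list is called shared. V had 431 shared regions (59.9% of its regions, 95% Wilson interval 56.3 to 63.5%), 219 with a peak of replicate 1 alone and 69 with a peak of replicate 2 alone.

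Worms of the wild-type strain N2 were raised in liquid culture and collected by freezing at L3, a larval stage. They were ground and fixed in 1% formaldehyde. Chromatin was immunoprecipitated with a Wako antibody to histone H3 trimethylated at lysine 4 (H3K4me3) and sequenced, in 2 replicates of a single group with no treatment, mutant or second stage. The labels also name 2 input DNA samples, 1 as the control of each ChIP sample, whose data were not analysed here. Whole bodies were used, so a weak peak from few cells with the mark and one from little of the mark in many cells cannot be told apart. Each peak carries a score, the authors' own value, on a scale the lists do not name. Scores were ranked within each list as percentiles, from the weakest peak upwards, and all peaks at a ceiling of 3100 share a percentile, 85.1 in replicate 1 and 90.9 in replicate 2.

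H3K4me3 is placed by SET1/COMPASS-type methyltransferases on nucleosomes near the 5′ ends of transcribed genes, and it is widely read as a sign of active promoters. Each autosome of C. elegans has a central domain, where recombination is rare and conserved, broadly used genes are common, and outer arms, where recombination is frequent, repeats and histone H3 lysine 9 methylation are enriched and young gene families lie in clusters. Chromosome V is known for large families of chemoreceptor genes, which code for seven-transmembrane receptors and of which many are active in few sensory neurons.

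V had the most genes and the fewest H3K4me3 regions of the 5 autosomes. In the RefSeq gene table of the WBcel235 assembly, V had 4995 protein-coding genes, against 2642 to 3446 on each of chromosomes I to IV. Of those on V, 867 (17.4%) had a symbol of a chemoreceptor family (str, srh, srw and related sr names), against 31 to 168 on each other autosome (1.17 to 4.88%). V thus had 86.3 shared regions for every 1000 protein-coding genes, where single other autosomes had 137 to 211. Without the genes with chemoreceptor symbols, V had 104.4 for every 1000, and the others 144 to 213. The shared regions counted were the same, so leaving these genes out can only raise a value, and more where such symbols are more common. These symbols were matched to a fixed list of prefixes, so family members under other symbols were still counted among the rest. Only the chromosome and the symbol of each gene were used here, and no peak was assigned to a gene, since the peaks are placed on another build, WormBase WS190.

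H3K4me3 regions were sparse on V in both replicates. Replicate 1 had 653 peaks on V (31.3 per Mb of its span of 20.9 Mb), against 39.2 to 58.8 per Mb on chromosomes I to IV. Replicate 2 had 516 (24.7 per Mb), against 30.0 to 44.2 per Mb. Peaks covered 4.92% of the span of V in replicate 1 (1.03 Mb) and 4.02% in replicate 2 (0.838 Mb), and on the other autosomes 6.11 to 9.41% and 4.90 to 7.61%. In each of these values V was the lowest of the 5 autosomes.

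Shared regions gave the same order, with 20.7 per Mb on V and 33.9 per Mb on I to IV together, a ratio of 0.610. Ratios from single lists were 0.630 in replicate 1 and 0.656 in replicate 2. On the log2 scale these were −0.67 and −0.61. No test was made of these differences, which were each measured in 2 samples, and the regions of a chromosome are not replicates. The intervals given for shares cover counting error only.

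The density was not even along V. Divided into 3 equal parts of 6.95 Mb, V had 119 shared regions on the left (17.1 per Mb), 209 in the middle (30.1 per Mb) and 103 on the right (14.8 per Mb). The middle part held 48.5% of the shared regions. Its density was 1.88 times that of the outer parts together, against 1.43 to 1.56 times on I to IV. The middle of V was nevertheless sparser than that of each other autosome (33.1 to 50.5 per Mb). Both its outer parts were also below those of the other autosomes (19.1 to 39.4 per Mb). In single lists the ratio on V was 1.98 in replicate 1 and 1.69 in replicate 2, each again the highest of the 5 autosomes, which otherwise had 1.44 to 1.51 and 1.29 to 1.45. Left and right parts of V were closer to each other, with a ratio of right to left of 0.866 in shared regions and 0.802 and 0.806 in the lists of replicates 1 and 2. When the lower-scoring peaks of each list, those below its median, were left out, left and right had equal numbers of shared regions.

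**Figure D1:**
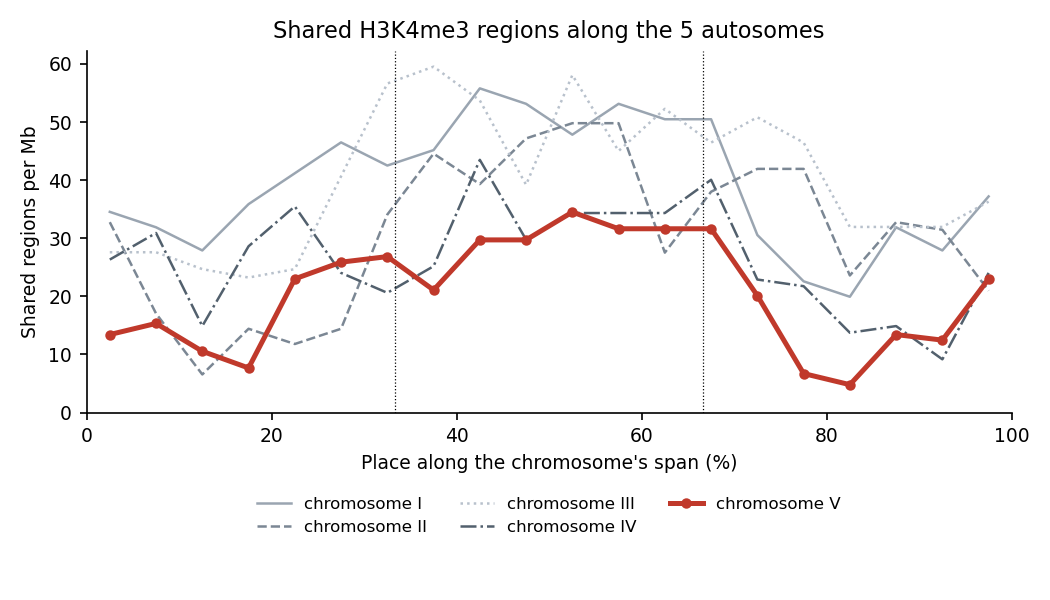
Shared H3K4me3 regions per Mb in 20 bins of 5% of each autosome's span. V is the thick red line with points, chromosomes I to IV are grey lines, and dotted vertical lines mark the 3 equal parts. V reached 34.5 per Mb in its densest bin and 4.79 per Mb in its sparsest, which lies in the right part.

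In windows of 1 Mb, V was denser over a stretch than on both sides of it. The windows were grouped here with their counts in view. The first 4 windows held 6 to 16 shared regions each (11.75 per Mb), and the next 4 held 21 to 27 (23.25 per Mb). The 6 windows between 8 and 14 Mb held 23 to 35 (31.5 per Mb), where whole windows of I to IV held 33.85 on average. The window from 14 to 15 Mb held 25, and the 5 after it 8 to 15 each (11.2 per Mb). The partial window at the right end, from 20000001 to 20864063, held 21, so shared regions became frequent again near that end.

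The fullest windows were those from 10 to 11 Mb with 35 shared regions, and those from 8 to 9, 11 to 12 and 13 to 14 Mb with 33 each. The emptiest were those from 3 to 4 Mb with 6, from 16 to 17 Mb with 8 and from 17 to 18 Mb with 9. Across its 20 whole windows V had a median of 21.5 shared regions and 20.5 ± 9.50 on average (SD over windows, n = 20). Of these windows, 7 held fewer than 15, against 5 of the 60 whole windows of I to IV, whose median was 32. More than 30 were found in 5 windows of V and in 33 of I to IV.

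The replicates followed each other across these windows. Windows held 11 to 54 peaks of replicate 1 and 9 to 40 of replicate 2, with Pearson's r of 0.930 and Spearman's rho of 0.937 over the 20 windows, given as a description since windows of the same 2 samples are not independent. Replicate 1 had more peaks in 15 windows and as many as replicate 2 in 2. The exceptions were windows at 1 to 2 Mb (23 and 25 peaks), 4 to 5 Mb (28 and 30 peaks) and 19 to 20 Mb (19 and 20 peaks).

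**Figure D2:**
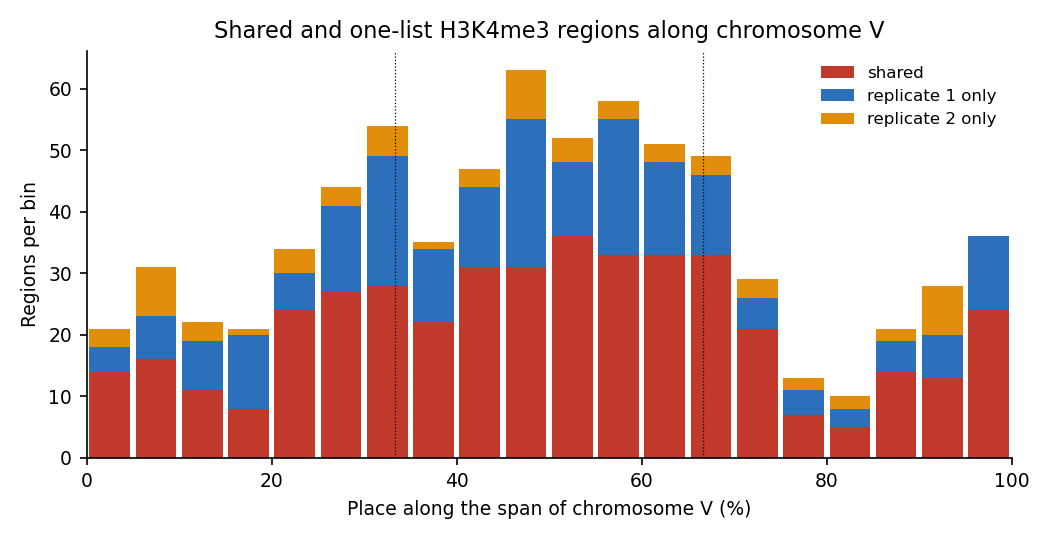
Number of shared regions (red), replicate 1 only regions (blue) and replicate 2 only regions (orange) in 20 bins of 5% of the span of V. Shared regions number 31 to 36 in each bin from 40 to 70% of the span and 5 to 7 in the bins from 75 to 85%.

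Long stretches of V had no peak in either list. There were 37 gaps over 100 kb between neighbouring peaks, together 5.89 Mb or 28.2% of the span of V. Single other autosomes had 2 to 17 such gaps, on 1.84 to 15.8% of their span, and the 4 together had 36. On V, 15 lay in the left part (2.28 Mb), 5 in the middle part (0.617 Mb) and 17 in the right part (2.997 Mb, 43.1% of that part). Of the 10 longest gaps on all 6 chromosomes, 5 were on V, and of the 20 longest, 10.

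The longest gap of all 6 chromosomes lay on V at 16967356 to 17514278 and measured 546923 bp. It was nearly the same in each list taken alone, 547030 bp in replicate 1 and 547978 bp in replicate 2. The next on V were at 2883854 to 3194593 (310740 bp), 15766563 to 16022571 (256009 bp), 3820414 to 4065834 (245421 bp) and 15191433 to 15394190 (202758 bp). Those of 256009 and 202758 bp had shared regions on both sides. In replicates 1 and 2 alone the former measured 256023 and 256011 bp and the latter 203066 and 202788 bp. The gap of 310740 bp ended at a peak of replicate 1 alone, and without that list it would have measured 430992 bp.

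Some of the 37 gaps over 100 kb, though not most, lay in 2 stretches, whose bounds were chosen after the gaps were seen. Between 2703949 and 4065834, 4 gaps over 100 kb took up 66.4% of 1.36 Mb, in which 22 regions lay, 8 of them shared. Between 15191433 and 17514278, 7 gaps over 100 kb took up 69.9% of 2.32 Mb, with 24 regions, of which 13 were shared. The most isolated shared region of V lay inside the latter stretch, at 15765421 to 15766562 (1142 bp). It had 186616 bp without a peak on its left and 256009 bp on its right, and scored 2184.68 in replicate 1 and 841.27 in replicate 2. The next most isolated lay outside both stretches, at 18231361 to 18232489, with scores of 583.89 and 153.81 and 143472 bp to the nearest peak, and at 19405464 to 19406250, with scores of 61.37 and 52.84 and 95521 bp to the nearest peak. All 3 lay in the right part, and the first ranked above the median of both lists (percentiles 64.2 and 53.4) whereas the last ranked near the bottom (percentiles 3.87 and 1.74).

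Outside gaps over 100 kb, V had 28.8 shared regions per Mb and I to IV together 37.1, a ratio of 0.775 in place of 0.610. Single other autosomes then had 31.4 to 41.2 per Mb, so V still had the lowest value. The ratio of the middle part to the outer parts was 1.28 on V when these gaps were left out, within the range of 1.17 to 1.40 on I to IV. Gaps hold no peak by definition, so leaving them out can only raise a density, and more where they take up more of the span. They took up 28.2% of the span of V and 8.82% of that of I to IV. Within V they took up 32.7, 8.88 and 43.1% of the left, middle and right parts. The rise to 0.775 and the middle ratio of 1.28 are thus partly fixed by how gaps are defined, and no cause was tested. The limit of 100 kb was chosen with the gap lengths in view. With 50 kb the ratio of V to I to IV was 0.877 and with 200 kb it was 0.646.

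**Figure D3:**
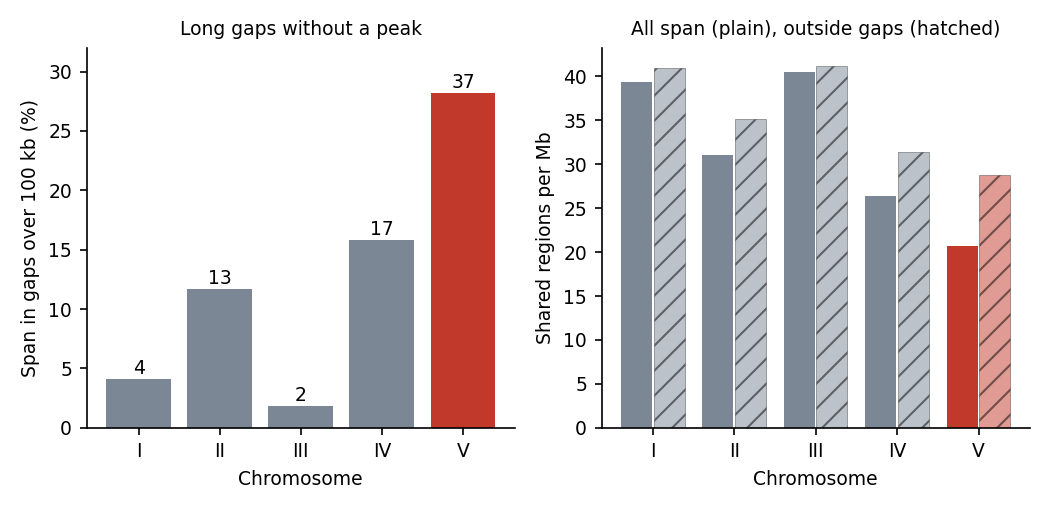
Left, percent of each autosome's span in gaps over 100 kb without a peak of either list, with the number of gaps above each bar. Right, shared regions per Mb over the whole span (plain bars) and outside these gaps (hatched bars). V (red) has 37 gaps on 28.2% of its span, and its bars are at 20.7 and 28.8 per Mb.

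Neighbouring shared regions on V were a median of 27112 bp apart (interquartile range 8187 to 55703 bp), against medians of 14408 to 19458 bp on I to IV. Of 430 distances, 38 were under 2 kb (8.84%) and 53 were over 100 kb (12.3%), and on I to IV together 11.97% and 4.09%. The median was 22141 bp in the middle part, 35970.5 bp in the left part and 37811.5 bp in the right part. These medians depend on which peaks are counted. In the whole list of replicate 1, neighbouring V peaks were a median of 15510.5 bp apart, and in that of replicate 2, 20548 bp.

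Runs of shared regions less than 2 kb apart took in 71 of the 431 shared regions of V (16.5%), in 33 runs, against 19.9 to 24.2% on I to IV. The longest run held 4 regions at 8889143 to 8898864, which is 9722 bp in the middle part. Its regions were 1625 to 2116 bp wide and alike in rank, with scores of 1272.95 to 1516.28 for replicate 1 and 545.39 to 1363.91 for replicate 2.

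The median shared region of V was 1566 bp wide (interquartile range 1201.5 to 2277.5 bp), and the medians of single other autosomes were 1606.5 to 1733 bp. Widths were alike in the 3 parts of V, with medians of 1622, 1544 and 1543 bp from left to right. The median percentile of V peaks was 50.4 in replicate 1 and 47.2 in replicate 2, against 51.6 to 55.6 and 51.3 to 55.9 on single other autosomes. Shares at the ceiling were 29.6% of V peaks in replicate 1 and 14.9% in replicate 2, against 31.8 to 34.0% and 19.3 to 22.7%.

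The middle of V had the most regions and the smallest share of shared regions at the score ceiling. There, 26 of 209 shared regions (12.4%, interval 8.63 to 17.6%) were at the ceiling in both lists, against 25 of 119 on the left (21.01%, 14.7 to 29.2%) and 26 of 103 on the right (25.2%, 17.8 to 34.4%). The interval of the middle overlapped that of the left and not that of the right. Among shared regions, the median of the mean percentile of both lists was 57.0 in the middle, 61.2 on the left and 71.4 on the right. Over all V peaks, shared or not, the left was below the middle, with median percentiles of 48.4 and 49.0 in replicate 1 and 43.3 and 47.3 in replicate 2, and the right was highest with 58.1 and 54.7. The part with the lowest share at the ceiling was the middle on all 5 autosomes, with 16.2 to 22.4% in the middle of I to IV. Among windows, the 6 shared regions from 3 to 4 Mb had a median percentile of 32.2, and those from 15 to 16 Mb and from 1 to 2 Mb had 81.3 and 80.7. The windows from 15 to 16 and from 1 to 2 Mb held 15 and 16 shared regions, below the median window of V (21.5). The next emptiest windows after that from 3 to 4 Mb, from 16 to 17 and from 17 to 18 Mb, had median percentiles of 66.9 and 50.9.

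Scores at the same site ranked alike in the lists. Spearman's rho of the scores over the 431 shared regions of V was 0.857, and 0.878 to 0.906 on single other autosomes. It is a description across regions of the same 2 samples. The percentiles differed by more than 30 in 42 regions of V (9.74%) and in 5.39 to 7.61% of those of single other autosomes. Of the 42, 36 were lower in replicate 2, as were 132 of 145 such regions on I to IV together. Over all shared regions the median difference, replicate 2 minus replicate 1, was −11.3 on V and −11.5 on I to IV. Percentiles were taken over each whole list. Peaks without a partner, mostly low in score, made up 1460 of 4408 in replicate 1 and 284 of 3280 in replicate 2. Shared regions thus ranked higher in replicate 1 partly by construction.

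Among the sites that differed most, 3 examples, picked after their values were seen, went in both directions. A region at 4434751 to 4436147 scored 75.49 in replicate 1 and 2641.89 in replicate 2, and one at 14239850 to 14241322 scored 67.89 and 1415.78. In the other direction, a 4748 bp region that starts at 6539285 reached the ceiling in replicate 1 and scored 155.0 in replicate 2.

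**Figure D4:**
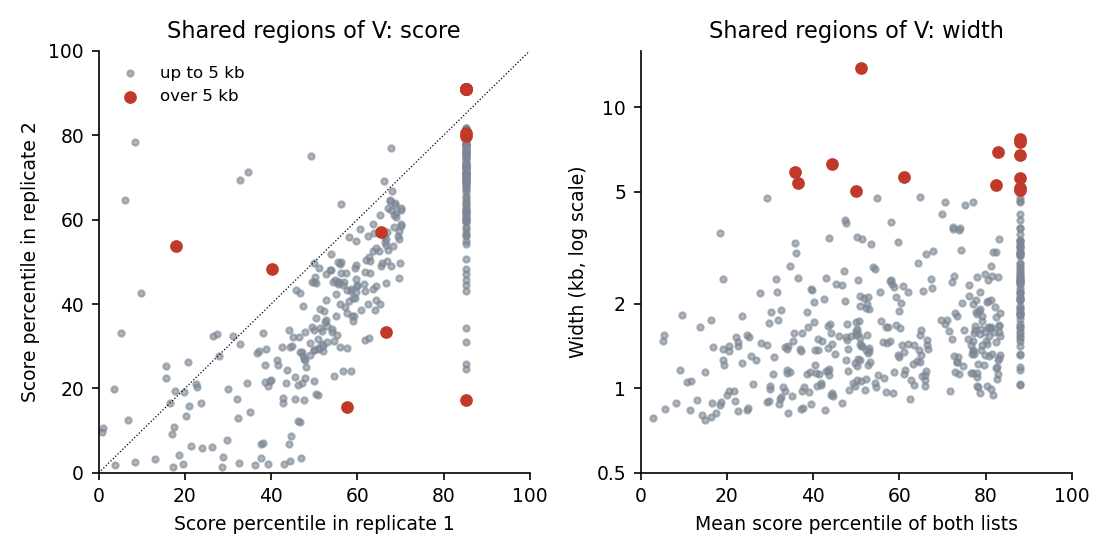
Each point is 1 of the 431 shared regions of V, red if over 5 kb wide. Left, score percentile in replicate 1 against replicate 2, with the line of equality. Right, width on a log scale against the mean percentile, where the 13779 bp region stands at a percentile of 51.2 and the column of points at 88.0 is at the ceiling in both lists.

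Broad regions of H3K4me3 have been linked, in mammals, to genes of cell identity. On V, 14 shared regions were wider than 5 kb (3.25%, interval 1.94 to 5.38%), against 6 to 15 on single other autosomes (1.30 to 3.17%). Of these, 7 lay in the left part, 4 in the middle and 3 in the right. The narrowest had 5047 bp, and the widest region that missed the limit had 4974 bp. Bases covered by both lists exceeded 5 kb in 6 of the sites on V and in 2 to 8 on single other autosomes. Over all V peaks of each list, shared or not, 11 of replicate 1 and 6 of replicate 2 were over 5 kb.

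In 6 of the 14 both replicates were at the ceiling. Among the 10 widest these were at 9543222 to 9550910 (7689 bp), 1150131 to 1157665 (7535 bp), 9338302 to 9345059 (6758 bp) and 14362961 to 14368572 (5612 bp). Each list covered at least 94.6% of each of the first 3. The fourth was covered whole by replicate 1 and to 73.0% by replicate 2. The 6961 bp region at 6510769 to 6517729 reached the ceiling in replicate 1, scored 2916.02 in replicate 2, and was called there as 2 peaks that covered 58.4% of it. That at 8662205 to 8667863 (5659 bp) scored 2363.23 and 1022.17.

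The remaining 4 of the 10 widest were low in 1 list or in both. The widest region of V (20660071 to 20673849, 13779 bp) was a single ceiling peak in replicate 1, whereas a peak of replicate 2 covered 33.4% of it with a score of 105.8. The region at 3579047 to 3584439 (5393 bp) scored 1485.45 in replicate 1 and 95.91 in replicate 2, where it was called as 3 peaks. A pair of broad regions lay only 2502 bp apart at 6393288 to 6399164 (5877 bp) and 6401667 to 6407934 (6268 bp). Both lists covered at least 94.3% of each region at scores below the ceiling, 125.51 and 474.6 in replicate 1 and 856.35 and 626.9 in replicate 2. For comparison, among shared regions of V with a mean percentile of 25 to 50, the median width was 1385 bp. Of these 109, 5 were over 4 kb, with the pair and the region at 3579047 among them. On I to IV together, 8 of 520 such regions were over 4 kb, the widest 7744 bp.

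The window from 6 to 7 Mb, which holds this pair, had 4 of the 14 broad sites and the largest median width of any window of V (2439 bp). Wider peaks in general had higher scores on V, with rho of 0.693 between width and score in replicate 1 and 0.520 in replicate 2, against 0.694 to 0.750 and 0.560 to 0.619 on single other autosomes.

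The other regions of V were found in 1 list alone. Replicate 1 had 219 peaks on V without a partner in replicate 2, and 434 of its 653 were found there (66.5%, interval 62.8 to 70.0%), against 65.6 to 72.3% on single other autosomes. Replicate 2 had 69 without a partner, and 447 of its 516 were found in replicate 1 (86.6%, 83.4 to 89.3%). On single other autosomes 90.3 to 93.8% were found, and V thus had the lowest share of the 5. V held 24.3% of all 284 peaks of replicate 2 alone, although it held 15.7% of the peaks of that list. Per Mb of span, however, V had 3.31 replicate 2 only regions, within the range of 2.66 to 3.34 on single other autosomes.

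The shares differed most among weak peaks. Below a score of 100, replicate 1 held a partner for 45 of 85 V peaks of replicate 2 (52.9%, 42.4 to 63.2%), against 68.6% (63.5 to 73.2%) on I to IV. From 100 to 300 the shares were 82.0% (73.8 to 88.0%) and 87.6% (83.9 to 90.5%), and from 300 to 1000 they were 91.8% (85.2 to 95.6%) and 96.2% (94.0 to 97.6%). Only in the lowest of these bands did the intervals not overlap. All 133 V peaks of replicate 2 from 1000 to the ceiling and all 77 at it were found. For peaks of replicate 1 the shares on V and on I to IV differed less, with 12.9% (7.38 to 21.7%) and 8.66% (6.23 to 11.9%) below 100 and 71.8% and 71.9% from 300 to 1000. All 193 of its V peaks at the ceiling were found.

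By position, the share of V peaks of replicate 2 that were found was 82.6% on the left (75.8 to 87.7%), 90.7% in the middle (86.3 to 93.8%) and 84.0% on the right (76.6 to 89.4%), with overlapping intervals. The middle had the highest share for replicate 2 on each of the 5 autosomes. For V peaks of replicate 1 the middle had the lowest share, with 64.9% (59.6 to 69.9%), against 65.4% on the left (58.2 to 71.9%) and 71.2% on the right (63.4 to 78.0%), again with overlapping intervals. The windows from 1 to 2 Mb and from 19 to 20 Mb held 8 replicate 2 only regions each, and that from 9 to 10 Mb held 9, whereas the partial window at the right end held 10 replicate 1 only regions and 0 of replicate 2 only.

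**Figure D5:**
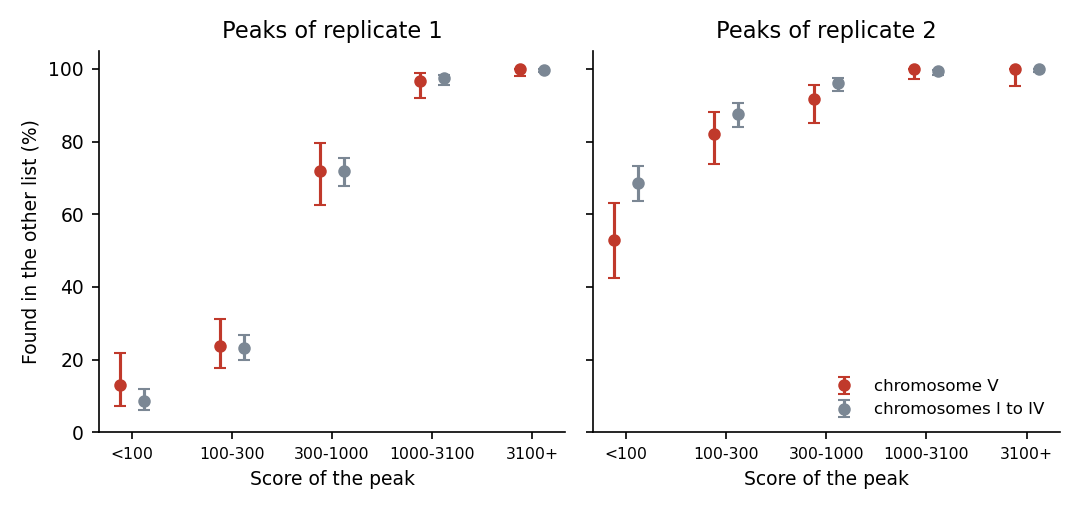
Percent of peaks found in the other list by score, for V (red) and for chromosomes I to IV together (grey), with 95% Wilson intervals. For replicate 2 the points of V lie below those of I to IV in the 3 bands under 1000, and for replicate 1 the intervals overlap in every band.

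Most one-list peaks of V were weak, with median scores of 133.7 in replicate 1 and 84.7 in replicate 2, against 2597 and 868.4 for V peaks found in both. In replicate 1 the 5 with the highest scores were at 14132487 to 14136399 (1942.31, 3913 bp wide), 8039401 to 8040853 (1335.72), 6259228 to 6260956 (1310.82), 12002955 to 12004566 (1135.84) and 10951716 to 10952820 (908.66). The first was 48014 bp from the nearest peak of replicate 2, and the others 5990 to 8847 bp. In replicate 2 they were at 1164830 to 1165857 (905.34), 10420601 to 10421822 (828.02), 6898381 to 6900747 (633.33), 10423752 to 10424923 (581.81) and 4332928 to 4336999 (559.45, 4072 bp wide). The first lay 7164 bp from the broad region at 1150131, and those that start at 10420601 and 10423752 lay 19213 and 16112 bp from any peak of replicate 1.

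Few regions of V were near the limit for being shared, and most of those were peaks of replicate 1. The smallest overlap in a shared region was 630 bp (11844616 to 11846364, scores of 225.25 and 56.46). The nearest miss in replicate 1 was a peak at 3773362 to 3774524 that stopped 3 bp from a peak of replicate 2. Of the 219 peaks of replicate 1 alone, 28 were within 1 kb of a peak of replicate 2 (12.8%), and of the 69 of replicate 2 alone, 1 was this near to a peak of replicate 1. More than 20 kb away were 59 (26.9%) and 17 (24.6%).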

How the data were processed

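Peaks of both ChIP samples were used as deposited by the authors: a start, an end and a score for each peak, in 1 list per sample on WormBase WS190, per the file headers. The submitters' processing notes name BWA, with no version. MACS and MA2C are both named in the lists, so the caller is not settled. For its thresholds and the read depths, values were not given in the sources used here. The scale of the deposited score is not named. The other deposited values are positions in bp. Scores above 3100 were set to 3100, and percentiles were taken over the whole list of each sample with tied ranks averaged.

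Regions were placed by their midpoints. A chromosome's span runs from position 1 to where the last peak of the 2 lists ends. Shares have 95% Wilson intervals (counting error only). No test was made. Nothing says that the 2 samples came from separate cultures. Depth is unknown, so a missing peak does not show that the mark is absent.

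Named regions are the 10 widest shared regions, the 5 longest gaps, the 5 highest one-list peaks of each list, the 3 fullest and 3 emptiest windows with ties, the longest run and the 3 most isolated shared regions. Members, lists and limits were chosen with earlier results of these data known. Joining was tested on simulated sites set well apart and not split into several peaks, so splits and near misses were not covered. Alternatives changed the overlap, joining distance, score limit, list length, span, parts, window and width limits, and left out each replicate. Python 3.11.15, pandas 2.3.3 and scipy 1.17.1 were used.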

Additional observations from a re-analysis of the deposited data

How the results depend on the processing

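Of 87 alternative values for 16 results, 44 stayed close to the main value and 43 moved further. Close means within 1.5 times (counts), 1 SD between the lists or the 95% interval (shares). The cause of the larger moves was not tested. The median percentile had to stay close with either list left out, since its main value is the mean of both lists. No log2 ratio changed sign, whereas counts, lengths, widths, shares and percentiles have no direction that could change. Without peaks scored below their list's median, V had 227 shared regions, by construction from shorter lists. Density against I to IV was then −0.87 on the log2 scale (main value −0.71), the middle against the outer parts 0.73 (0.91), and right against left 0 (−0.21). The longest gap was 695193 bp, spacing 49123 bp, width 1787 bp, broad sites 9, windows 2 to 21, and 96.6% of replicate 2 peaks were found. With lists of equal length, density was −0.76, right against left −0.17, the longest gap 547978 bp, and 84.5% and 80.8% of peaks of replicates 1 and 2 were found. A reciprocal overlap of 50% gave −0.15 for right against left and 80.4% for replicate 2. A middle of 50% of the span gave 1.12. Above 3 kb there were 62 broad sites, and 6 by bases covered in both lists. The emptiest 500 kb window held 0 shared regions.

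With either replicate left out, the regions numbered 516 to 653, density was −0.67 to −0.61, the middle 0.75 to 0.99 and right against left −0.32 to −0.31. The longest gap was 547030 to 547978 bp, spacing 15510.5 to 20548 bp, width 1253 to 1336.5 bp, broad sites 6 to 11, the emptiest window 9 to 11, the fullest 40 to 54 and the median percentile 47.2 to 50.4. Alternatives added after the data were seen gave 52.5% and 7.49% of the span in gaps over 50 and 200 kb, 31.3 to 40.4% with either list left out, and densities outside gaps over 50 and 200 kb of −0.19 and −0.63 (main value −0.37). Regions per 1000 genes against I to IV were −0.98, and −0.93 to −0.87 with either list left out. Leaving out chemoreceptor symbols gave −0.75, where only the gene counts changed. No paired analysis was possible because only 1 group has peak lists here.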
